A study of Saccharomyces cerevisiae with 9 samples.

Results

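The oligos described here are synthetic Saccharomyces cerevisiae 5′ leaders in which a single upstream AUG opens a reading frame that runs, without a stop codon, into the annotated start codon of the gene and would add codons to the front of its protein. They were chosen by sequence alone. Among RNAs whose name marks them as upstream AUG variants, those were kept in which the distance from the only lower-case atg to the start codon was a multiple of 3 and no TAA, TAG or TGA lay in that frame between them. This gave 55 RNAs out of 5762 of the pool in the deposited table, which ends within an RNA, or 4.13% of the 1333 variants that could be read. Several leaders of different length can hold the same upstream AUG, so the 55 RNAs carried 44 distinct upstream AUGs of 39 genes. Of these genes, 36 were found in the RefSeq gene table (assembly R64) and 31 had a symbol other than their locus tag. The deposited table names no genome build and gives no genomic positions, so positions are counted from the 5′ end or from the start codon of each RNA.

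The pool was made for structure probing with dimethyl sulphate (DMS), which methylates unpaired A and C. The labels list 9 libraries, with 3 replicates in each of 3 groups: RNA refolded and given DMS during 2 min at 30 °C, RNA refolded and held alike with no DMS, and RNA given DMS after 2 min at 95 °C, which unfolds it. All libraries came from the same T7-transcribed synthetic RNA, with no cell, protein or cap, so nothing here measures translation. The table's 6 value columns are named by replicate only, and a replicate number is common to 3 libraries. They were left aside, so neither depth nor DMS reactivity is reported, and every value below is read from the sequences or predicted from them.

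A yeast ribosome usually loads at the capped 5′ end and scans to the first AUG in a favourable context, in which a purine, most often A, stands 3 nt before the codon. An upstream AUG that is in frame with no stop between is unlike other upstream AUGs, because initiation there can give the protein an N-terminal extension. Yeast uses such pairs of in-frame AUGs to make 2 forms of some enzymes, often a longer mitochondrial form and a shorter cytosolic one.

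In these RNAs the upstream AUG is the only AUG, and the start codon and all other AUGs are written as agt. Extensions ran from 1 to 31 codons, counted from the upstream AUG to the codon before the start codon. The median was 10.5 codons, with quartiles of 3.75 and 16. The rule favours short extensions, since a longer frame meets a stop more often. Of the 44 extensions, 20 had 1 to 6 codons, 8 had 7 to 14 and 16 had 15 to 31. Shown whole, so that both codons can be seen, are the 5 shortest extensions and the 5 others of up to 5 codons that were found in more than 1 leader. Capitals mark the upstream AUG and the start codon, which the pool carries as AGT.
SUC2: ctaacgtatATGAGT
DCS2: aaaaaatacATGAGT
CMI8: aaacagattATGAGT
YOR293C-A: aagcaaaagATGAGT
MRPL13: atagtATGaggAGT
SPS19: tttcgagtcATGgatactAGT
YDL144C: cataagctaATGtcgaaaAGT
MSF1: tatctgccaATGgaggtaacttcaAGT
ASA1: tcgattacaATGggcgtagaacacAGT
ASG7: attcaaagaATGacgacaagaaacAGT

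In 4 genes the upstream AUG stood directly before the start codon, so the extension is that codon alone. SUC2, the invertase gene, had this arrangement in a 38-nt leader, with the upstream AUG 35 nt from the 5′ end. DCS2, a stress-induced relative of the cap-scavenging enzyme, had it in a leader of 47 nt. The other two were CMI8 with a 22-nt leader and YOR293C-A with a 71-nt leader. MRPL13, which encodes a protein of the large mitochondrial ribosomal subunit, followed with 2 codons in an 11-nt leader, the shortest leader of the set. MSF1, the mitochondrial phenylalanyl-tRNA synthetase gene, had 5 codons, as did ASA1, a gene of the ASTRA chromatin complex, and ASG7, a regulator of mating signalling.

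The 8 longest extensions, of 21 to 31 codons, are shown by their first bases, with the upstream AUG in capitals, since they show what a long extension begins with.
EMA17: aacgcagttATGcaaaccatcaaagagggc
LAP3: ttttgttacATGcttcctacttctgtttcc
NRG2: aaATGaatttccggcaccaagtcatagtag
YEN1, 26 codons: ataATGtatagtgtccatccaagtaaagta
YEN1, 24 codons: ataagttatATGgtccatccaagtaaagta
YLR012C: caacattctATGaagacggcagcttcaaga
ASR1: gaaaaaaagATGcaaggagttgagccaagg
STE11: cATGcataaagagagaccacttaataaagc

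EMA17 had 31 codons. LAP3, which encodes a cysteine aminopeptidase related to bleomycin hydrolase, had 29 codons, the same in leaders of 113 and 102 nt. NRG2, a repressor of glucose-repressed genes, had 27, and YEN1, the Holliday junction resolvase gene, had 3 upstream AUGs with 26, 24 and 20 codons. YLR012C had 23 and ASR1, a ubiquitin ligase gene, had 22. STE11, the MAP kinase kinase kinase of the mating pathway, had 2 upstream AUGs, with 21 and 10 codons. Of all these, those of EMA17, NRG2 and YEN1 were broken by a stop in the sequence that holds every AUG.

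That loss comes from how the pool was built. Where an upstream AUG variant holds a further AUG, the pool writes it as agt, and this changes the letters of overlapping frames. An ATG followed by A contains a TGA in the next frame, and AGTA does not. Such a replaced codon lay inside 13 of the 44 extensions, or 17 of the 55 RNAs. These RNAs held 23 replaced codons, and all 23 were found as ATG at the same place in another RNA of the same leader. When the codons were restored, 9 of the 44 upstream AUGs met a stop before the start codon, in 7 genes and 11 RNAs, and all 9 stops were TGA. The other 35 upstream AUGs, of 32 genes and 44 RNAs, met none.

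The 7 genes are shown as the pool has them and with the codon restored, because the difference of these letters decides whether the frame extends the protein. Both lines of a pair begin in the frame of the upstream AUG, and the YEN1 pair is that of the AUG with 24 codons. Capitals mark the replaced codon that holds the stop when restored, and the base after it. The YEN1 lines also differ at another replaced codon, which is left in lower case.
PCA1 in the pool: tttatacaAGTAaagagcccaaag
PCA1 restored: tttatacaATGAaagagcccaaag
NRG2 in the pool: caagtcatAGTAgcactcgctact
NRG2 restored: caagtcatATGAgcactcgctact
GUD1 in the pool: atgaatatAGTAattgggctgtcc
GUD1 restored: atgaatatATGAattgggctgtcc
EMA17 in the pool: gagggcaaAGTAactattcccgct
EMA17 restored: gagggcaaATGAactattcccgct
YEN1 in the pool: ccaagtaaAGTAcagttctattgc
YEN1 restored: ccaatgaaATGAcagttctattgc
YNL109W in the pool: gcttcatcAGTAaataaaaatcaa
YNL109W restored: gcttcatcATGAaataaaaatcaa
YOR013W in the pool: atgcaAGTAtacattactacacga
YOR013W restored: atgcaATGAtacattactacacga

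PCA1, which encodes a P-type ATPase that exports cadmium, had an extension of 16 codons in the pool, and the restored frame ended after 7 codons. The restored frame of EMA17 ended after 8 of its 31 codons, and that of NRG2 after 8 of 27. GUD1, the guanine deaminase gene, kept 3 of 12 codons. The 3 upstream AUGs of YEN1 share 1 TGA, which left 8, 6 and 2 codons of 26, 24 and 20. YNL109W kept 12 codons of 17, and YOR013W kept 2 of 11 in each of its 3 leaders. The loss fell on extensions of more than 6 codons, which alone held replaced codons. All 20 extensions of up to 6 codons were free of stops when restored, since none held a codon to restore. Free of stops were also 6 of 8 with 7 to 14 codons and 9 of 16 with 15 to 31 codons. Whether the loss depends on length among extensions that hold a replaced codon was not tested. The median was 5 codons over the 35 free of stops and 20 over the 9 that met one. The reverse change was rare: of the RNAs with an in-frame upstream AUG closed by a stop, 2 were closed only in the pool sequence. Both are leaders of SEN34, a subunit gene of the tRNA splicing endonuclease.

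The same replacement also reached the frame beyond the start codon. In 15 of the 55 RNAs the extended frame met a stop after the start codon and before the last 12 nt of the insert, which differ between a variant and its parent and were left out. The stop was TAG in 14 of them, as arises where a T precedes a replaced codon. Once the codons were restored, 14 of the 15 had no stop in this stretch after the start codon. Among them, PCA1, GUD1 and YOR013W in its leaders of 36 and 86 nt met the restored TGA before the start codon. COG2, a gene of the Golgi tethering complex, met its stop 5 codons after the start codon and ASA1 6 codons after it. The exception was CPT1, the cholinephosphotransferase gene, which had a stop 17 codons after the start codon in the pool and 25 codons after it when restored. In 33 of the 55 RNAs no stop lay from the upstream AUG to those last bases, both in the pool sequence and when restored.

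The base 3 nt before each codon was read at the upstream AUG and at the start codon of the same RNAs. At the 39 upstream AUGs with at least 3 leader bases before them, T (U in the RNA) was the most frequent base, at 16 sites (41.0%, 95% Clopper-Pearson interval 25.6 to 57.9). A stood at 13 sites (33.3%, 19.1 to 50.2), C at 6 and G at 4. A or G together stood at 17 upstream AUGs (43.6%, 27.8 to 60.4) and at 29 start codons of the same RNAs (74.4%, 57.9 to 87.0). These 2 intervals overlap at their ends, and the difference was not tested. The intervals cover counting error only and treat sites as independent, although LIH1, RSM18 and YEN1 gave more than 1 site. Compared pair by pair, 11 had a purine at both codons, 18 at the start codon alone, 6 at the upstream AUG alone and 4 at neither.

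The 13 upstream AUGs with A in this place were those of ASA1, ASG7, ASR1, CMI8, MRPL13, RNR3, YBR109W-A and YOR293C-A, both of LIH1, the AUG of RSM18 with 12 codons, that of STE11 with 10 codons and that of YEN1 with 26 codons. For the LIH1 upstream AUG with 14 codons this A is the first base of the other LIH1 upstream AUG, which stands directly before it. The 4 with G were those of COG2, EMA17, PCA1 and SPS19, a peroxisomal dienoyl-CoA reductase gene. The 6 sites where only the upstream AUG had a purine belonged to ASA1, RNR3, YBR109W-A, STE11 and both AUGs of LIH1, a gene with similarity to lipases. RNR3 encodes a DNA damage-inducible large subunit of ribonucleotide reductase. Its upstream AUG had A and its start codon C. The STE11 start codon had T, against A at its upstream AUG with 10 codons.

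The share of A or G was also read for the other kinds of upstream AUG in the pool. It was 43.6% of 39 extending upstream AUGs, 38.1% (30.2 to 46.5) of 147 in-frame ones closed by a stop, 39.4% (34.3 to 44.5) of 371 out-of-frame ones closed before the start codon and 32.2% (26.4 to 38.5) of 242 out-of-frame ones that overlap it. The intervals of the first and of each other kind overlap, and the differences were not tested. The share 3 nt before the start codon was 74.4% for the extending kind, 66.7% for the closed in-frame kind, 75.2% for the out-of-frame kind closed before the start codon and 76.4% for the overlapping kind. A higher share at the start codon was thus found in each of the 4 kinds. G in the base after the AUG was found at 10 of the 39 (25.6%, 13.0 to 42.1), against 28 of 147 (19.0%, 13.0 to 26.3) for the closed in-frame kind.

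Extending upstream AUGs lay between 0 and 93 nt from the first base after the GGG of each RNA, read in the longest leader. The median was 20.5 nt (quartiles 8 and 43.25, n = 44). The closed in-frame kind had a median of 12 nt (4 and 31, n = 185), the out-of-frame kind closed before the start codon 15 nt (4 and 36, n = 463) and the overlapping kind 29.5 nt (10 and 54, n = 272). The distance to the start codon is set in part by the rule. Its median was 31.5 nt for the extending kind, 54 nt for the closed in-frame kind, 50 nt for the out-of-frame kind closed before the start codon and 19 nt for the overlapping kind.

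Of the 44 upstream AUGs, 17 lay 12 nt or less from the 5′ end when read in the longest leader. Those of PRS4, a phosphoribosyl pyrophosphate synthetase gene, and CPT1 began at the first base. SRP72, which encodes a subunit of the signal recognition particle, and STE11 had theirs 1 nt further in. In NRG2 it lay at 2 nt and in YEN1 at 3 nt. YKR045C had its upstream AUG at 4 nt, while those of GUD1, RNR3 and MRPL13 lay at 5 nt. Those of PCA1, SAF1 (an F-box protein), YOR238W, DPB2 (a subunit of DNA polymerase epsilon), YEN1 and ASR1, lay at 8 to 10 nt, and that of EMA17 lay at 12 nt. Read in the shortest leader that holds them, further upstream AUGs lay this near. These were the RSM18 AUGs with 15 and 12 codons at 2 and 11 nt, and those of YOR013W at 3 nt, YDL144C at 8 nt and SPS19 at 12 nt. Such places leave a scanning ribosome little leader, and AUGs very near a cap are known to be passed over often.

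In 15 of the 44 an in-frame stop lay somewhere upstream of the AUG in the leader with the codons restored. A frame begun before that stop could not run on into the AUG. How far the stop lay from the AUG was not recorded. For the other 29 the leader held no such stop.

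The same gene could also be present with a leader too short to hold its upstream AUG. More than 1 leader was in the pool for 16 of the 39 genes, and in 9 of them at least 1 leader began downstream of the upstream AUG. LAP3 had 4 leaders: those of 113 and 102 nt held the AUG and those of 57 and 34 nt did not. STE11 had a leader of 64 nt with both upstream AUGs and 1 of 29 nt with neither. YEN1 had leaders of 81 and 49 nt, and the shorter held none of its 3 upstream AUGs. PRS4 had leaders of 48 and 31 nt, and GUD1 of 41 and 28 nt. RMR1, a gene needed in meiotic recombination, had leaders of 40 and 3 nt. YOR238W had leaders of 17 and 6 nt, and YNL109W of 94 and 42 nt. YOR013W had 4 leaders, of 103, 86, 36 and 0 nt, and only the last lacked its upstream AUG. Only 219 of the 4384 wild-type RNAs in the table belong to Crick-strand genes, so leaders of such genes are seen here only in part.

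Mitochondrial targeting sequences are known to be rich in basic residues and poor in acidic ones, so both kinds of codon were counted in the extensions. Over the 44 extensions as the pool has them, 72 of 451 codons after the upstream AUG were for lysine or arginine. Aspartate or glutamate had 29. The genetic code holds more codons for lysine and arginine than for aspartate and glutamate. What excess of basic codons this alone would give in such leaders was not computed. No acidic codon was present in 26 extensions. LAP3 had 6 basic and 0 acidic codons in its 29-codon extension. NRG2 had 5 basic and 0 acidic, and YLR012C and EMA17 had 6 basic and 2 acidic each. For NRG2 and EMA17 these counts hold in the pool sequence only, since the restored frames ended after 8 codons. RSM18, which encodes a protein of the small mitochondrial ribosomal subunit, had 3 basic and 0 acidic codons in its extension of 15 codons. Its first 14 codons after the start codon held the same numbers. MSF1 had 0 basic and 1 acidic codon in an extension of 5 codons, and MRPL13 had 1 and 0 in 2 codons. COQ3 and PPT2 had 0 of each in 4 codons. Whether any extension acts as a targeting sequence was not tested.

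Among the 14 extensions of at least 10 codons that were free of stops with the codons restored, basic codons outnumbered acidic ones in 11, were equal in 1 and were fewer in 2. The exceptions were CPT1, with 1 basic and 3 acidic codons, the STE11 upstream AUG with 10 codons, with 1 basic and 2 acidic codons, and COG2, with 1 of each. For 37 extensions the insert held as many codons after the start codon. There the extensions had 41 basic and 25 acidic codons of 282, against 31 basic and 37 acidic codons of 282 in the first coding codons of the same RNAs. Both sets were counted in the pool sequence, not the restored one. The 37 include PCA1, GUD1, the YEN1 upstream AUG with 20 codons, YNL109W and YOR013W, whose restored frames ended early. The coding codons compared for COG2 run past the stop that the pool sequence holds 5 codons after the start codon. The count of 11 was not set against the larger number of basic codons in the code. Sites of 1 gene share bases, and these counts were not tested.

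The extensions had a GC content of 37.3% ± 7.53 (SD, n = 44), from 19.6% in YNL109W to 58.3% in PPT2, the gene of an enzyme that activates the mitochondrial acyl carrier protein.

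Of the 12 listed yeast genes known for 2 products from in-frame AUGs, 7 had an RNA in the deposited table and 2 had upstream AUG variants there. SUC2 was the only one with an extending upstream AUG, which adds 1 codon. Whether this AUG has a part in the 2 products of the gene was not tested. VAS1, the valyl-tRNA synthetase gene, had 3 upstream AUGs, all out of frame. None of the 9 listed initiation factor genes in the table, of 25 listed, had an upstream AUG variant. The table ends within an RNA and holds few wild-type RNAs of Crick-strand genes. A listed gene without an RNA may thus be missing from the table alone.

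Predicted pairing around the upstream AUG differed widely between members and on average little from that around the start codon. The unpaired probability is the chance, in the predicted ensemble at 30 °C, that a base is not in a pair, and it was averaged over the codon and 10 nt on each side. It was 0.472 ± 0.117 around the upstream AUG and 0.461 ± 0.112 around the start codon (mean and SD over the 31 genes in which both windows lie inside the RNA). The difference was 0.0103 (SE 0.0192), with 16 of 31 genes above 0. The windows of the 2 codons share bases for 18 of the 34 upstream AUGs, and with a window of 5 nt the sign turned (-0.0274, 36 genes).

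ASR1 had the highest value, 0.736 around the upstream AUG and 0.632 around the start codon. It was followed by LST7, a gene of the TORC1 pathway, with 0.659, SAF1 with 0.639, EMA17 with 0.611 and OST2, an oligosaccharyltransferase subunit gene, with 0.603. The lowest was the YEN1 upstream AUG with 20 codons, at 0.219, whereas that with 24 codons in the same leader had 0.596. YNL109W followed with 0.261, SPS19 with 0.267, DPB2 with 0.276 and COQ3, a methyltransferase gene of coenzyme Q synthesis, with 0.303. The upstream AUG was the more open codon by the most in YBR109W-A, with 0.489 against 0.247 at the start codon. The start codon was the more open by the most for the YEN1 upstream AUG with 20 codons, with 0.219 at that AUG and 0.459 at the start codon. RMR1 followed, with 0.385 at the upstream AUG and 0.607 at the start codon.

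The 3 bases of the upstream AUG alone spanned nearly the whole scale, from an unpaired probability of 0.000884 in ASG7 to 0.890 in ASR1 (median 0.432, n = 44). In ASG7 the codon was predicted to be paired in both leaders, with 0.000884 in that of 94 nt and 0.00281 in that of 78 nt. In LIH1 the codon 15 codons upstream had 0.00171 and that directly after it 0.277, each in its own RNA. SUC2 had 0.724 and LAP3 0.756.

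The value of 1 upstream AUG also differed between the RNAs that hold it. The insert has a fixed length, so an RNA with a shorter leader carries more coding sequence, and the parts of the leader and of the coding sequence in these differences cannot be told apart. The SPS19 upstream AUG had an unpaired probability over 10 nt on each side of 0.267 in the leader of 102 nt and 0.487 in that of 21 nt. For MSF1 the values were 0.398 in 59 nt and 0.534 in 30 nt, and for LAP3 0.565 in 113 nt and 0.431 in 102 nt. For ASA1 they were 0.443 in 104 nt and 0.463 in 87 nt. Among the 9 upstream AUGs with a value in at least 2 leaders, it was higher in the longest leader than in the shortest for 4 and lower for 5.

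The wild-type parent, in which the upstream codon is AGU and the start codon AUG, was present for 29 of the 55 RNAs. These were the RNAs of Watson-strand genes and, of Crick-strand genes, those of CMI8 and YOR293C-A alone. The predicted free energy was lower in the variant for 16 and higher for 13, with a mean difference of -0.815 kcal/mol (SD 4.39). It ran from -11.0 in YNL109W (-46.4 in the variant and -35.3 in its parent) to 7.3 in the 102-nt leader of SPS19 (-45.0 in the variant and -52.3 in its parent). Over the 25 RNAs with a complete window, the unpaired probability was 0.445 ± 0.109 around the upstream AUG and 0.478 ± 0.124 at the same place in the parent (SD). DPB2 had 0.276 in the variant and 0.649 in the parent, and PCA1 had 0.316 in the variant and 0.147 in the parent. A variant and its parent also differ in the last bases of the insert, and the part of these bases in the differences was not tested.

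Around the upstream AUG the mean unpaired probability per gene was 0.472 ± 0.117 (n = 31) for the extending kind, 0.435 ± 0.134 (n = 120) for the in-frame kind closed by a stop, 0.440 ± 0.111 (n = 273) for the out-of-frame kind closed before the start codon and 0.439 ± 0.121 (n = 211) for the overlapping kind. The SE of the mean of the extending kind was 0.0210, and the differences between kinds were not tested.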

How the data were processed

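Synthetic RNA made with T7 RNA polymerase was reverse-transcribed with TGIRT-III, per the labels' protocols. The submitters' processing notes name STAR and SAMtools, with no versions. No genome build is given in the sources used here. The authors deposited 1 table with the name and reference base of each position and 6 value columns, which were not used because no name gives a condition. Those named as mutation rates hold whole numbers. The planned result on mutation rates was therefore not computed. The table ends within an RNA after 1048575 positions.

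Bases were joined in file order (Python 3.11.15, pandas 2.3.3). For 1 of 1334 variants no single start codon was found. Distinct upstream AUGs were counted by gene and distance to the start codon and read in the longest leader. For restored sequences each lower-case agt was turned into atg. Whole RNAs of 182 nt were folded with ViennaRNA 2.7.2 at 30 °C. The classification was tested on simulated sequences. Intervals are exact binomial ones.

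Genes described singly were those with the 5 longest and 5 shortest extensions, a purine 3 nt before the AUG, the 5 highest and lowest unpaired probabilities, an AUG within 12 nt of the 5′ end, several AUGs or leaders, or a place on a list. Genes named for a codon count, a restored frame, free energy or GC content were chosen after their values were seen. The list by product text could not be made, since the gene table holds none. Members and lists were chosen with earlier results of these data known.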

Additional observations from a re-analysis of the deposited data

How the results depend on the processing

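The 6 results were recomputed under 25 alternatives. The predictions and lengths carry no replicate error, so changes are given as values and none is called stable. The count of upstream AUGs changed by over 1.5 times in 2 cases. Both follow from splitting the set of 44 by where the name places the start codon. In 21 upstream AUGs it lay 1 nt before the number in the name, and in 23 at the number. The 21 were those of Watson-strand genes and the 23 those of Crick-strand genes, so this split is the split by strand. Restoring the replaced codons before looking for stops, an alternative chosen after seeing the data, left 36 upstream AUGs, which include that of SEN34. Over those of the 44 free of stops when restored, the median extension was 5 codons against 10.5, the purine share 45.2% against 43.6% and the mean unpaired probability 0.484 against 0.472. The median extension was 14 codons in Watson-strand genes and 6 in Crick-strand genes, and the median distance from the 5′ end was 13.5 nt in the shortest leaders against 20.5 nt in the longest. The difference in unpaired probability between upstream AUG and start codon was -0.0274 with a window of 5 nt and ran from 0.000307 to 0.0242 under the other alternatives. No paired analysis was possible because the columns carry no condition, and for the same reason no replicate could be left out and no coverage minimum could be set. Pairing is predicted without reactivity data, salt or protein.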
